A study of Mus musculus with 22 samples.

Results

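Lefty1, Lefty2, Nodal, Tdgf1, Smad7 and Skil, 6 genes of the Nodal and activin branch of transforming growth factor beta (TGF-beta) signalling, were described across 22 arrays of mouse pluripotent cell lines. They were chosen by name, and they and the gene lists used below were chosen with earlier results of these data known. Each of the 6 was measured by 1 probe set, and together they made up 6 of the 19938 genes that had a probe set listed with a single gene symbol. Nodal is a secreted ligand that binds activin receptors together with the co-receptor Tdgf1 (Cripto), and the receptors then phosphorylate Smad2 and Smad3. With Smad4 and DNA-binding partners such as Foxh1, these Smads switch on target genes, among them Lefty1 and Lefty2, whose secreted products block Nodal outside the cell. Smad7, which blocks the receptors, and Skil (SnoN), which represses Smad-bound genes, are further feedback inhibitors. Mouse embryonic stem cells make Nodal themselves, and Lefty1 and Lefty2 are widely used as readouts of its signal in them.

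RNA came from embryonic germ (EG) lines, pluripotent lines derived here from embryos at embryonic day 8.5, and from embryonic stem (ES) lines. Samples comprised 4 EG lines derived directly in 2i (EG 2i, 3 of them female), 4 EG lines kept for 2 days in serum and then moved to 2i (EG 2is, 2 female), 5 ES samples in 2i (ES 2i, 2 female), 4 EG lines in fetal calf serum (EG FCS, 1 female) and 5 ES samples in fetal calf serum (ES FCS, 2 female). Lines in 2i grew on laminin in N2B27 medium with leukaemia inhibitory factor (LIF) and a pair of inhibitors, PD0325901 against MEK and CHIR99021 against GSK3. FCS medium held serum and LIF, on a feeder layer of mouse embryonic fibroblasts, so medium and feeders changed together and cannot be told apart. All 22 samples shared a mixed 129SvEv background with the Oct4-delta-PE-GFP transgene. ES lines were derived in either culture and later switched, so a sample in 2i and one in FCS can be the same line, which the labels do not settle. The cell type label of all 10 ES samples reads EGCs, while title and source name say ES, and they were analysed as ES lines. Each separately labelled sample is called a line. Labels say nothing more of separate cultures, so p-values reflect only how far these samples vary, which may be technical.

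Values are log2 expression values, on which a difference of 1 is a doubling of signal, and levels are compared only within a gene. Array medians lay between 5.54 and 5.62, the correlation between arrays within a group was 0.979 to 0.998, and the number of arrays limits the precision. The highest value of the Y-linked gene Eif2s3y in a female line, 4.88, marks background. Of the 132 values of the 6 genes, 1 lay below it, Lefty1 in EG 2i line 2. All 7 pluripotency markers were above it on every array, the lowest value being 8.59. Of 6 germ cell markers, 1 had a mean below it in each of the EG 2i, EG 2is and ES 2i groups, and none did in the FCS groups. It was Dnd1 in the EG groups and Nanos3 in ES 2i lines. Germ cell markers moved both ways by the test given below. Against FCS, 2 of 6 were called higher in each comparison, against 11.4%, 12.7% and 16.6% of all genes in EG 2i, EG 2is and ES 2i lines. In the same order 3, 3 and 4 were called lower, against 12.5%, 12.9% and 14.9%. The labelled batch 1 held all EG lines and lines 1 and 2 of each ES group, and batch 2 held ES lines 3 to 5 of each culture. One sample stood apart: ES 2i line 3 differed from the other ES 2i lines by 0.194 on average over all genes (mean absolute log2 deviation), against 0.12 to 0.143 for the other lines of that group, so ES results are also given without it. Differences were tested with limma with terms for group, batch and sex, and calls were made at p under 0.05 after Benjamini-Hochberg adjustment over all 19938 genes. Fitted differences therefore need not equal the difference of the group means.

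Lefty1 had the largest fitted difference of the 6 in each of the 3 culture comparisons, and it was lower in 2i every time. In EG 2i lines 4 of the 6 genes were called lower than in EG FCS lines, Lefty1, Lefty2, Skil and Tdgf1, where 12.5% of all genes tested were called lower. For those 4 genes the groups did not overlap, as for 24.2% of all genes. In ES 2i lines the same 4 genes were called lower than in ES FCS lines, where 14.9% of all genes were, and 2 of them, Skil and Tdgf1, had groups that did not overlap, against 22.2% of all genes. In EG 2is lines 3 genes were called lower than in EG FCS lines, Lefty1, Skil and Tdgf1, against 12.9% of all genes, and the same 3 had groups that did not overlap, against 24.5%. The median difference of the 6 genes was −0.94 in EG 2i, −0.33 in EG 2is and −0.87 in ES 2i. Over all genes tested the median was 0.01 in EG 2i, −0.01 in EG 2is and 0.00 in ES 2i. EG 2i and EG 2is were set against the same EG FCS lines. In RNA of whole cultures, fewer cells that express a gene and less of its RNA per cell cannot be told apart.

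**Figure D1:**
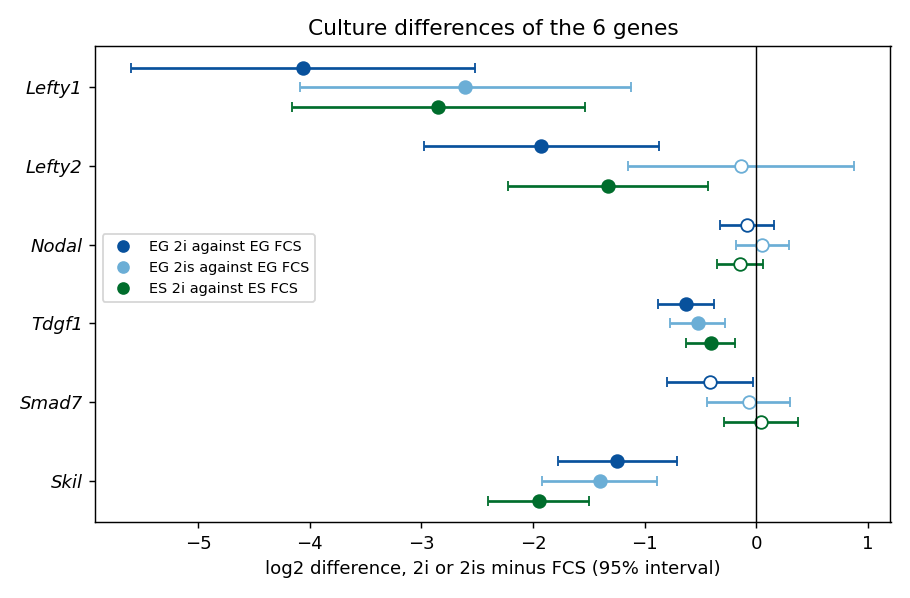
Log2 difference of each of the 6 genes (rows) between lines in 2i or 2is and lines in FCS, with its 95% interval. Filled points passed the test and open points did not. Lefty1 lies at −4.06 in EG 2i lines, −2.61 in EG 2is lines and −2.85 in ES 2i lines, while every interval of Nodal includes 0.

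Lefty1 (chr1:180935022-180938401, GRCm38.p6) encodes a secreted antagonist that binds Nodal and its co-receptor. Its values were 7.08, 4.74, 5.10 and 6.33 in EG 2i lines 1 to 4, and 8.23, 7.01, 7.23 and 6.37 in EG 2is lines, against 10.61, 10.01, 8.78 and 9.64 in EG FCS lines. Every EG line in either 2i protocol was below every EG FCS line. Lefty1 was 16.6-fold lower in EG 2i lines than in EG FCS lines (log2 difference −4.06, SE 0.74, adjusted p = 4.4e-04), a size that ranked 5 among the falls of all 19938 genes. Background (4.88) limits this size and rank, since EG 2i line 2 was below it and line 3 near it. In EG 2is lines Lefty1 was 6.09-fold lower than in EG FCS lines (−2.61, SE 0.71, adjusted p = 0.00947). This second call was lost when EG FCS line 1, the highest of its group, was left out (−2.30, adjusted p of 0.0506). Among male lines alone, which also leave out that female line, the difference was −1.86 and stayed called.

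In ES cells, Lefty1 measured 5.53, 5.11, 9.56, 5.50 and 7.19 in ES 2i lines 1 to 5, against 8.56, 10.08, 9.47, 9.57 and 9.46 in ES FCS lines. The groups overlapped through ES 2i line 3 alone, which was at the level of the FCS lines. The mean was 6.58 ± 1.85 in ES 2i lines and 9.43 ± 0.55 in ES FCS lines (SD, n = 5 each). Lefty1 was 7.21-fold lower in ES 2i lines (−2.85, SE 0.63, adjusted p = 0.00143). Without ES 2i line 3 the difference was −3.59 (adjusted p = 1.98e-05). Within batch 1 it was −4.00 (adjusted p = 0.00854), and within batch 2, which holds line 3, it was −2.09 and did not pass (adjusted p = 0.0568).

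Lefty2 (chr1:180893108-180899107, GRCm38.p6), the neighbouring and closely related antagonist, passed the test against EG FCS lines in EG 2i lines and did not pass in EG 2is lines. It measured 7.99, 6.47, 6.61 and 7.24 in EG 2i lines and 9.05, 7.93, 9.06 and 8.79 in EG 2is lines, against 8.98, 8.35, 8.24 and 9.14 in EG FCS lines. The EG 2i lines were all below the EG FCS lines, whereas EG 2is and EG FCS lines overlapped. Against EG FCS lines, Lefty2 was 3.80-fold lower in EG 2i lines (−1.93, SE 0.50, adjusted p = 0.00785). The difference in EG 2is lines was −0.14 with a 95% interval of −1.15 to 0.88 (adjusted p = 0.883). Set directly against EG 2is lines, EG 2i lines had a Lefty2 difference of −1.79 (SE 0.48), which had an unadjusted p of 0.00152 but an adjusted p of 0.207.

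Lefty2 in ES 2i lines was 7.53, 6.47, 10.30, 6.67 and 7.98, against 8.92, 8.74, 9.28, 9.33 and 9.32 in ES FCS lines. ES 2i line 3 was above every ES FCS line, and the other 4 ES 2i lines were below every one of them. The fitted difference was −1.33 (SE 0.43, 2.51-fold lower in ES 2i lines, adjusted p = 0.0218). Without ES 2i line 3 it was −1.86 (adjusted p = 1.84e-04). The call was lost when ES 2i line 2, ES 2i line 4 or ES FCS line 2 was left out (adjusted p = 0.067, 0.0833 and 0.07), and in either batch on its own (−1.83, adjusted p = 0.0842 in batch 1, and −0.99, adjusted p = 0.223 in batch 2).

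**Figure D2:**
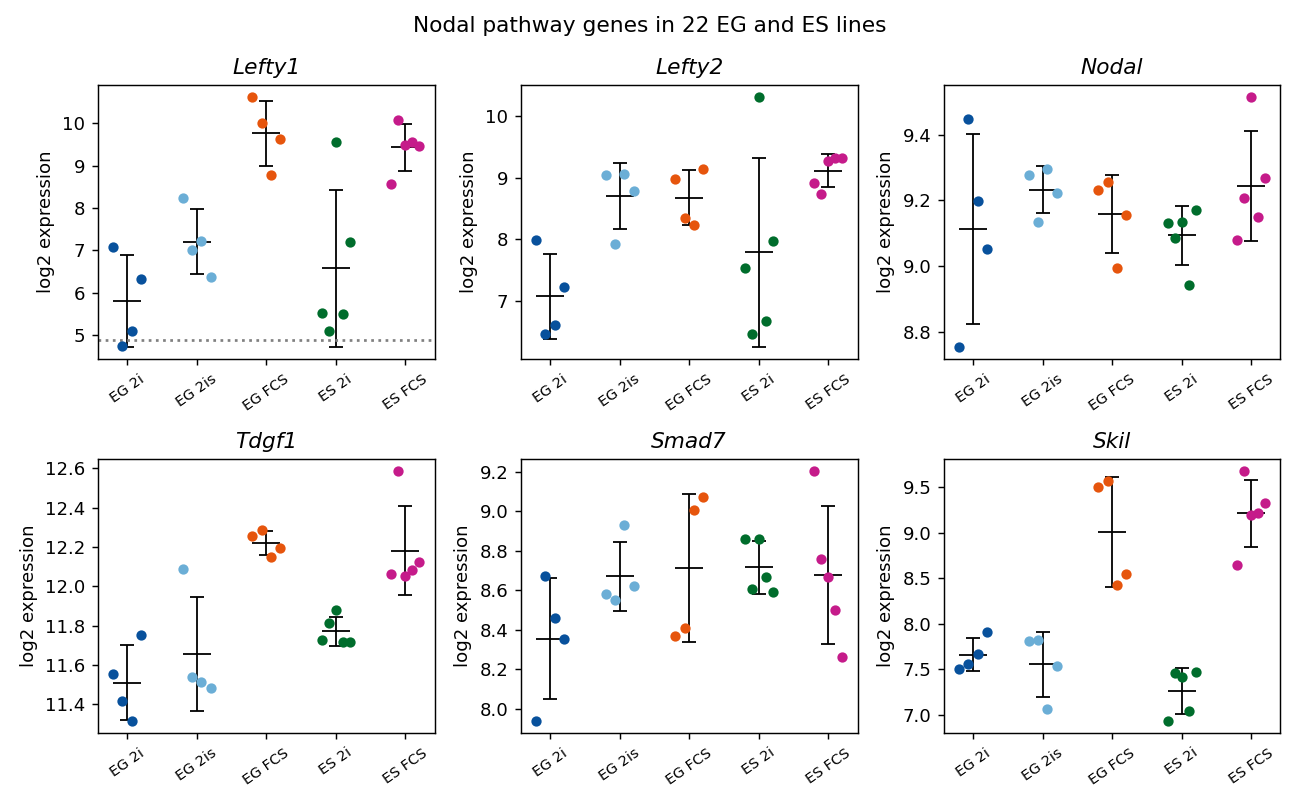
Log2 expression of the 6 genes in all 22 lines, by group. Each point is a line, bars give the mean and SD, and the dotted line in the Lefty1 panel is the background level of 4.88. Lefty1 spans 4.74 to 9.56 in the 2i and 2is lines and 8.56 to 10.61 in the FCS lines, and Nodal stays between 8.76 and 9.51 in all lines.

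The spread of the Lefty genes among lines was wider in EG 2i and ES 2i lines than in serum, and in EG 2is lines it was close to that of EG FCS lines. The SD of Lefty1 was 1.09 in EG 2i and 0.77 in EG 2is lines, against 0.76 in EG FCS lines, and 1.85 in ES 2i against 0.55 in ES FCS lines. That of Lefty2 was 0.69 in EG 2i and 0.53 in EG 2is lines, against 0.45 in EG FCS lines, and 1.53 in ES 2i against 0.27 in ES FCS lines. Without ES 2i line 3 the ES 2i SD was 0.92 for Lefty1 and 0.71 for Lefty2. Pooled over groups whose means differ, Lefty1 ranged over 4.81 log2 units in the 13 EG 2i, EG 2is and ES 2i lines (SD 1.38), against 2.05 in the 9 FCS lines (SD 0.63). For Lefty2 the range was 3.83 in the 2i and 2is lines and 1.09 in the FCS lines. No test of this spread was run. In EG 2i lines, Lefty1 and Lefty2 put all 4 lines in the same order, and in ES 2i lines all 5. That was so for 0 of 4 EG 2is lines, 1 of 4 EG FCS lines and 1 of 5 ES FCS lines, which is a description of few lines. The sequences of Lefty1 and Lefty2 are close to each other, and how far each probe set also binds the RNA of the other was not tested.

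ES 2i line 3, a female line of batch 2, carried the high Lefty values. It exceeded the highest other ES 2i line by 2.37 for Lefty1 and by 2.33 for Lefty2, sizes that ranked 2 and 3 among all 19938 genes in that line. Usp26, Gpc3 and Naaa, named here after their values were seen, held the ranks 1, 4 and 5 with excesses of 2.39, 2.06 and 1.91. The other female ES 2i line, line 1, had a Lefty1 value of 5.53. Leaving line 3 out changed none of the culture calls of the 6 genes. Without it the ES 2i difference was −2.03 for Skil, −0.49 for Tdgf1, −0.14 for Nodal and −0.015 for Smad7, which was not called either way.

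**Figure D3:**
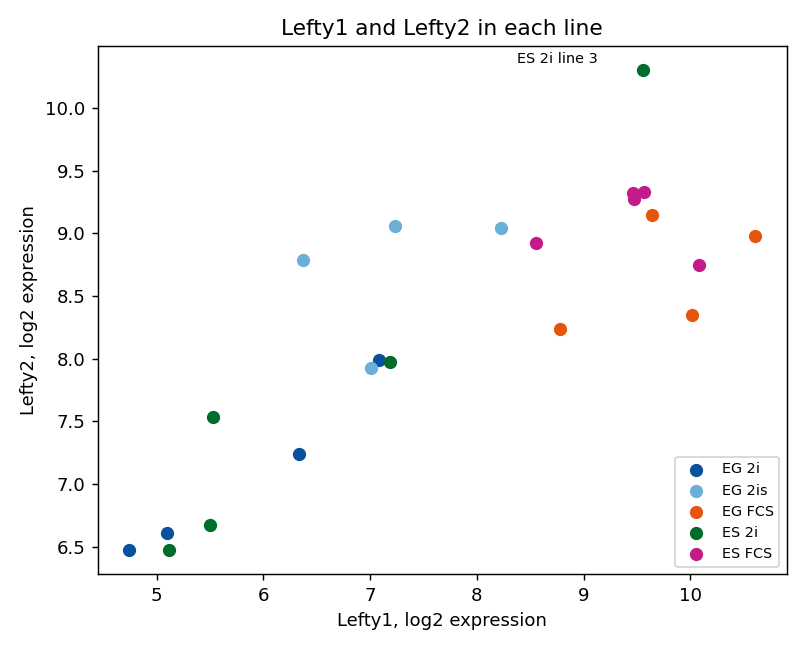
Lefty1 (x axis) against Lefty2 (y axis), log2 expression, with 1 point for each of the 22 lines, coloured by group. ES 2i line 3 sits at 9.56 and 10.30 among and above the FCS lines, the EG 2is lines combine Lefty1 values of 6.37 to 8.23 with Lefty2 values of 7.93 to 9.06, and the EG 2i lines reach down to 4.74 and 6.47.

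Nodal itself (chr10:61417972-61425338, GRCm38.p6), the ligand, was not called in any comparison. It measured 8.76, 9.45, 9.20 and 9.05 in EG 2i lines and 9.28, 9.14, 9.30 and 9.22 in EG 2is lines, against 9.23, 9.26, 8.99 and 9.16 in EG FCS lines. Values in ES 2i lines were 9.13, 9.09, 9.13, 8.94 and 9.17, against 9.08, 9.21, 9.51, 9.15 and 9.27 in ES FCS lines. All groups overlapped, and the whole range over 22 lines was 0.76 log2 units. The difference from FCS was −0.09 in EG 2i lines (95% interval −0.33 to 0.16, adjusted p = 0.658), 0.05 in EG 2is lines (−0.18 to 0.29, adjusted p = 0.793) and −0.15 in ES 2i lines (−0.36 to 0.06, adjusted p = 0.294). These intervals bound a fall of the Nodal transcript in 2i at 0.36 log2 units in ES lines and 0.33 in EG 2i lines.

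Tdgf1 (chr9:110939608-110946158, GRCm38.p6), the membrane-anchored co-receptor that Nodal needs, fell in all 3 culture comparisons by small amounts. It measured 11.55, 11.42, 11.32 and 11.75 in EG 2i lines and 12.09, 11.54, 11.51 and 11.48 in EG 2is lines, against 12.25, 12.28, 12.15 and 12.20 in EG FCS lines. In ES 2i lines it was 11.72, 11.81, 11.88, 11.72 and 11.72, against 12.06, 12.59, 12.05, 12.08 and 12.13 in ES FCS lines. No line in 2i or 2is reached the FCS lines of its own cell origin. Tdgf1 was 1.55-fold lower in EG 2i lines (−0.63, SE 0.12, adjusted p = 7.3e-04), 1.44-fold lower in EG 2is lines (−0.53, SE 0.12, adjusted p = 0.00211) and 1.33-fold lower in ES 2i lines (−0.41, SE 0.10, adjusted p = 0.00414). Tdgf1 is also on the list of pluripotency markers.

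The promoters of Tdgf1 and Nodal, the genes of the co-receptor that fell and of the ligand that was not called, are shown for comparison as the 250 bases before the annotated start (RefSeq, GRCm38.p6). The Tdgf1 sequence is chr9:110946159-110946408 on the minus strand (42% GC) and the Nodal sequence chr10:61417722-61417971 on the plus strand (53.2% GC). Promoter sequence was examined for these 2 of the genes shown only, and the promoters of the others are not described here. Capitals mark matches, on either strand, to the SMAD box CAGAC, the FOXH1 motif AATNNACA, the TCF motif CTTTGA and the KLF-type box GGGCGTGG, the last chosen after the sequence was read.
Tdgf1: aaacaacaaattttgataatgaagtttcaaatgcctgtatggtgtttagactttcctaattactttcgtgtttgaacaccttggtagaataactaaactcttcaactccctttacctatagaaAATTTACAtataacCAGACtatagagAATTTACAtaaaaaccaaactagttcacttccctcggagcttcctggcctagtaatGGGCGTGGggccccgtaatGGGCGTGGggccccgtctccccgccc
Nodal: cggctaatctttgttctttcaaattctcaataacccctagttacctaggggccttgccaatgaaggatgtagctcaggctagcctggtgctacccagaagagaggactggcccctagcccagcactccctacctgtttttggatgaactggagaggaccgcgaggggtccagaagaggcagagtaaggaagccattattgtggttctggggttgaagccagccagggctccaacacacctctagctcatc
In the Tdgf1 promoter there was 1 SMAD match, 113 bases before the start, lying between 2 FOXH1 matches, the first of them 127 bases before the start. It held 2 KLF-type matches, the first 45 bases before the start, and 0 TCF matches. The Nodal window held 0 matches to any of the 4. Of 32851 promoter windows of this length, 42.2% held the SMAD box, 10.9% the FOXH1 motif, 13.8% the TCF motif and 4.79% the KLF-type box, and no matches overlapped in these windows. A match describes letters only, and no binding was measured.

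Smad7 (chr18:75367365-75395935, GRCm38.p6), the inhibitory Smad that blocks the activated receptor, passed the test in no culture comparison. Its values were 7.94, 8.67, 8.46 and 8.35 in EG 2i lines and 8.58, 8.55, 8.93 and 8.62 in EG 2is lines, against 8.37, 8.41, 9.004 and 9.07 in EG FCS lines. ES 2i lines measured 8.86, 8.61, 8.86, 8.66 and 8.59, against 9.20, 8.76, 8.67, 8.499 and 8.26 in ES FCS lines. The groups overlapped in all 3 comparisons. The EG 2i difference was −0.42 (95% interval −0.80 to −0.03, unadjusted p = 0.0368, adjusted p = 0.117), and it was called only when EG FCS line 1 was left out (−0.64, adjusted p = 0.0251). In EG 2is lines the difference was −0.07 (−0.44 to 0.30, adjusted p = 0.831) and in ES 2i lines 0.04 (−0.29 to 0.37, adjusted p = 0.898).

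Skil (chr3:31095058-31122923, GRCm38.p6), whose product SnoN binds Smads and represses their targets, had the lowest adjusted p of the 6 genes in the EG 2is and ES 2i comparisons. It measured 7.50, 7.56, 7.67 and 7.91 in EG 2i lines and 7.81, 7.82, 7.06 and 7.53 in EG 2is lines, against 9.51, 9.57, 8.42 and 8.54 in EG FCS lines. ES 2i lines were at 6.93, 7.46, 7.42, 7.04 and 7.47, against 8.65, 9.68, 9.20, 9.21 and 9.33 in ES FCS lines. Every line in 2i or 2is was below every FCS line, in EG and ES cells alike, and ES 2i line 3 was not apart from its group for Skil. Skil was 2.37-fold lower in EG 2i lines (−1.25, SE 0.25, adjusted p = 0.00127), 2.65-fold lower in EG 2is lines (−1.41, SE 0.25, adjusted p = 2.6e-04) and 3.86-fold lower in ES 2i lines (−1.95, SE 0.22, adjusted p = 1.2e-06). In ES lines the call held in each batch alone, with differences of −1.97 in batch 1 (adjusted p = 9.96e-04) and −1.94 in batch 2 (adjusted p = 5.99e-05).

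Ordered by mean, Lefty1 levels were lowest in EG 2i lines (5.81 ± 1.09) and then went up through ES 2i (6.58 ± 1.85), EG 2is (7.21 ± 0.77), ES FCS (9.43 ± 0.55) and EG FCS lines (9.76 ± 0.76; SD, n = 4 for EG and 5 for ES groups). The only neighbours in this order whose lines did not overlap were EG 2is and ES FCS lines. Skil ran from ES 2i (7.26 ± 0.25) through EG 2is (7.55 ± 0.36) and EG 2i (7.66 ± 0.18) to EG FCS (9.01 ± 0.61) and ES FCS lines (9.21 ± 0.37), and the only neighbours without overlap were EG 2i and EG FCS lines. Tdgf1 ran from EG 2i (11.51 ± 0.19) through EG 2is (11.65 ± 0.29) and ES 2i (11.77 ± 0.07) to ES FCS (12.18 ± 0.23) and EG FCS lines (12.22 ± 0.06), with a gap between ES 2i and ES FCS lines alone. Across cell origins the groups could still overlap. For Tdgf1, EG 2is line 1 (12.09) lay above ES FCS lines 1, 3 and 4. For Lefty1, ES 2i line 3 (9.56) lay above EG FCS line 3, and within ES cells it lay above ES FCS lines 1, 3 and 5. For Lefty2 the order was EG 2i (7.08 ± 0.69), ES 2i (7.79 ± 1.53), EG FCS (8.68 ± 0.45), EG 2is (8.70 ± 0.53) and ES FCS lines (9.12 ± 0.27), and all neighbours overlapped. Nodal means lay between 9.09 in ES 2i and 9.24 in ES FCS lines, and Smad7 means between 8.36 in EG 2i and 8.72 in ES 2i lines, again with overlap between all neighbours.

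The sex ratio differs between the EG groups, and 1 EG 2i line is male. Among male lines alone, the EG 2i difference of Lefty1 was −3.15 (adjusted p = 0.0187) and stayed called. Lefty2 (−1.34, adjusted p = 0.123), Tdgf1 (−0.46, adjusted p = 0.148) and Skil (−0.94, adjusted p = 0.115) did not pass there, in a fit that assumes the lone male EG 2i line to vary like the other groups. Between female and male lines, with group and batch in the model, 0 of the 6 genes were called, against 3.62% of all genes, and 2 had an unadjusted p under 0.05. These were Lefty2 (0.65 higher in female lines, SE 0.31, adjusted p = 0.234) and Tdgf1 (−0.16, SE 0.07, adjusted p = 0.238). Without ES 2i line 3, a female line, the adjusted p of Lefty2 was 0.535. Leaving out each array in turn, the Lefty2 difference ranged from 0.28 to 0.81.

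Feeder fibroblast markers moved with culture. Of 19 measured, 8 fell in EG 2i, 11 in EG 2is and 13 in ES 2i lines against the FCS lines of the same origin, and 2 rose, both in ES 2i. Of all genes, 12.5%, 12.9% and 14.9% were called lower in these comparisons, and 16.6% higher in ES 2i lines. Of the 9 defining markers, such as Col1a1 and Col3a1, 6, 6 and 8 fell. The log2 of the summed level of the 9 lay at 8.14 to 8.35 in EG 2i, 8.13 to 8.32 in EG 2is and 8.06 to 8.25 in ES 2i lines, against 8.66 to 9.51 in EG FCS and 8.64 to 9.45 in ES FCS lines, so the cultures did not overlap. Acta2, smooth muscle actin and one of the 19, ranked 1 among the falls of all genes in EG 2i lines (−4.50, adjusted p = 9.6e-09). Over all 19 markers the ranges overlapped, as the summed level lay at 11.6 to 12.0 in EG 2i, 11.8 to 12.1 in EG 2is and 11.9 to 12.2 in ES 2i lines, against 11.9 to 12.7 in EG FCS and 11.7 to 12.6 in ES FCS lines. On average 3, 3 and 5 of the 9 defining markers lay below background in EG 2i, EG 2is and ES 2i lines, against 2 in EG FCS and 1 in ES FCS lines. The part of feeder RNA in the culture differences of the 6 genes was not tested.

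Cell origin made no called difference in any of the 6 genes. EG FCS against ES FCS lines gave 0 of 6 genes, against 0.01% of all genes, and no unadjusted p was under 0.05. The widest interval was that of Lefty1, whose difference was 1.07 (95% interval −0.55 to 2.69, adjusted p = 0.999). EG 2i against ES 2i lines also gave 0 of 6, against 3.72% of all genes, and 2 genes had an unadjusted p under 0.05. Smad7 was −0.55 (SE 0.20, adjusted p = 0.123) and Tdgf1 −0.29 (SE 0.13, adjusted p = 0.222). Skil alone had EG 2i and ES 2i lines that did not overlap, as did 9.69% of all genes, with EG 2i lines at 7.50 to 7.91 and ES 2i lines at 6.93 to 7.47 (0.51, SE 0.27, adjusted p = 0.324).

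EG 2is against ES 2i lines gave 0 of 6 genes, against 0.0451% of all genes. Lefty2, with a difference of 1.45 (SE 0.52, adjusted p = 0.377), was the 1 gene with an unadjusted p under 0.05. Between EG 2i and EG 2is lines 0 of 6 genes were called, against 0% of all genes, and Lefty2 was again the 1 gene with an unadjusted p under 0.05. The EG response to 2i differed from the ES response for 0 of 6 genes, against 1.44% of all genes. Skil came nearest, with a difference of responses of 0.70 (95% interval 0.00 to 1.40, unadjusted p = 0.0495, adjusted p = 0.315), and that of Lefty1 was −1.21 (−3.23 to 0.82, adjusted p = 0.592). All comparisons between EG and ES lines rest on the batch term, which is estimated from ES lines alone.

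Beyond the 6 genes, 43 of 47 listed genes of the Nodal and activin pathway were analysed. In EG 2i lines 8 rose and 8 fell against EG FCS lines (of all genes 23.9% were called, 11.4% higher and 12.5% lower), with a median difference of −0.00. In ES 2i lines 8 rose and 15 fell against ES FCS lines (31.6% of all genes called, 16.6% higher and 14.9% lower), with a median of −0.09. In EG 2is lines 7 rose and 9 fell (25.6% of all genes called, 12.7% higher and 12.9% lower). Of these genes 5 were called higher and 7 lower in both EG 2i and ES 2i lines, and 0 were called in opposite directions. The shares of all genes called in both comparisons were not computed, so these counts describe the listed genes only.

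Of 7 ligands, 1 was called lower in EG 2i, 1 in EG 2is and 4 in ES 2i lines. Of all genes, 12.5%, 12.9% and 14.9% were called lower there, so the EG counts are near the share over all genes. No ligand was called higher, where 11.4%, 12.7% and 16.6% of all genes were in EG 2i, EG 2is and ES 2i lines. Inhba, the activin A subunit, measured 4.94 ± 0.15 in EG 2i and 5.83 ± 0.41 in EG FCS lines (SD, n = 4 each, −0.98, adjusted p = 0.00876). It was below background in all 5 ES 2i lines (4.55 ± 0.27) and at 6.28 ± 0.61 in ES FCS lines (SD, n = 5 each, adjusted p = 6.5e-06), which makes it at least 2.63-fold lower in ES 2i lines when the background level of 4.88 is taken for them. Inhbb, Tgfb1 and Tgfb3, a further activin subunit and a pair of TGF-beta ligands, fell in ES 2i lines by 0.57, 0.58 and 0.36 on the log2 scale, Tgfb3 to a mean of 4.85, below background. Gdf3, a Nodal-related ligand, did not pass, at −0.17 in EG 2i and 0.15 in ES 2i lines.

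Receptors moved in both directions. Acvr1b (ALK4), the type I receptor used by Nodal and activin, measured 7.57 ± 0.10 in EG 2i and 6.90 ± 0.43 in EG FCS lines (SD, n = 4 each, 0.74, adjusted p = 0.00519). It measured 7.87 ± 0.27 in ES 2i and 6.88 ± 0.23 in ES FCS lines (SD, n = 5 each, 0.99, adjusted p = 5.4e-05), and rose in EG 2is lines by 1.02. Acvr2b, a type II receptor, was lower in all 3 comparisons, at −0.42 in EG 2i, −0.38 in EG 2is and −0.60 in ES 2i lines. Tgfbr3, a co-receptor for TGF-beta and inhibin, rose in EG 2i (0.55) and ES 2i lines (0.52), and Tgfbr2, the TGF-beta type II receptor, in EG 2i lines (0.43). Convertases that cleave the Nodal precursor were higher. Pcsk6 (PACE4) rose in EG 2i (0.85), EG 2is (1.16) and ES 2i lines (1.24). Furin rose in EG 2is (0.76) and ES 2i lines (0.46), and at 0.47 in EG 2i lines it did not pass (adjusted p = 0.0526). Of the secreted antagonists, Fst, which binds activin, rose in ES 2i lines (0.70) with groups that overlapped, Fstl3 fell there by 0.57, and Cer1 was below background in every group.

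Smad2 and Foxh1, which carry the signal to target genes, passed in no culture comparison, Smad2 at −0.00, −0.11 and −0.02 and Foxh1 at −0.53, −0.23 and −0.25 in EG 2i, EG 2is and ES 2i lines. Smad3 rose in EG 2is (0.90) and ES 2i lines (0.91), and at 0.39 it did not pass in EG 2i lines (adjusted p = 0.0985). Smad4, the common partner, rose in EG 2i (0.37) and EG 2is lines (0.29). It was the 1 listed pathway gene called between EG 2i and ES 2i lines (0.24 higher in EG 2i lines, adjusted p = 0.0418). Calls in that comparison depended on the model, with 742 over all genes here and 15 with only the groups compared. Smad4 in the other settings is not reported here. Zfyve9 (SARA), which presents Smads to the receptor, rose by 1.00, 1.15 and 0.87 in EG 2i, EG 2is and ES 2i lines. Ep300, a co-activator, fell in EG 2i lines by 0.28, and Trim33, which binds Smad2 and Smad3, fell in ES 2i lines by 0.38.

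Of 7 SMAD inhibitors, 4 fell and 1 rose in EG 2i lines, where 12.5% of all genes were called lower and 11.4% higher. In ES 2i lines 5 of 7 fell, against 14.9% of all genes. Ski, the relative of Skil, fell by 0.33 in EG 2i and by 0.38 in ES 2i lines. Tgif2, a co-repressor, fell by 0.45 and by 0.40, and Smurf1, a ubiquitin ligase, by 0.45 and by 0.38 in the same groups. Ppm1a, a phosphatase that acts on Smads, measured 9.15 ± 0.04 in EG 2i and 9.76 ± 0.05 in EG FCS lines (SD, n = 4 each, −0.62, adjusted p = 1.2e-06), and 9.29 ± 0.11 in ES 2i and 9.76 ± 0.05 in ES FCS lines (SD, n = 5 each, −0.47, adjusted p = 1.5e-06). Smurf2 fell in ES 2i lines by 0.24, and Pmepa1, itself a TGF-beta target, rose in EG 2i lines by 0.46 with groups that overlapped.

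Further target genes did not move as a group. Ccn2 (CTGF), a TGF-beta and YAP target, measured 8.05 ± 0.62 in EG 2i and 9.92 ± 0.38 in EG FCS lines (SD, n = 4 each, −1.9998, adjusted p = 2e-05), and 7.98 ± 0.24 in ES 2i and 9.48 ± 0.36 in ES FCS lines (SD, n = 5 each, −1.51, adjusted p = 3.5e-05). Gsc, a homeobox gene that Nodal induces in the primitive streak, was higher, at 6.85 ± 0.51 in EG 2i and 5.49 ± 0.18 in EG FCS lines (SD, n = 4 each, 1.24, adjusted p = 2.1e-04). In ES cells Gsc was at 6.65 ± 0.35 in 2i and 5.74 ± 0.13 in FCS (SD, n = 5 each, 0.91, adjusted p = 5e-04). Lhx1 was called lower in ES 2i lines, where all 5 values were below background, and Eomes, Mixl1 and Foxa2 were not called. Feeder markers moved with the same comparisons, as given above, and fibroblasts also express Ccn2 and Inhba.

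**Figure D4:**
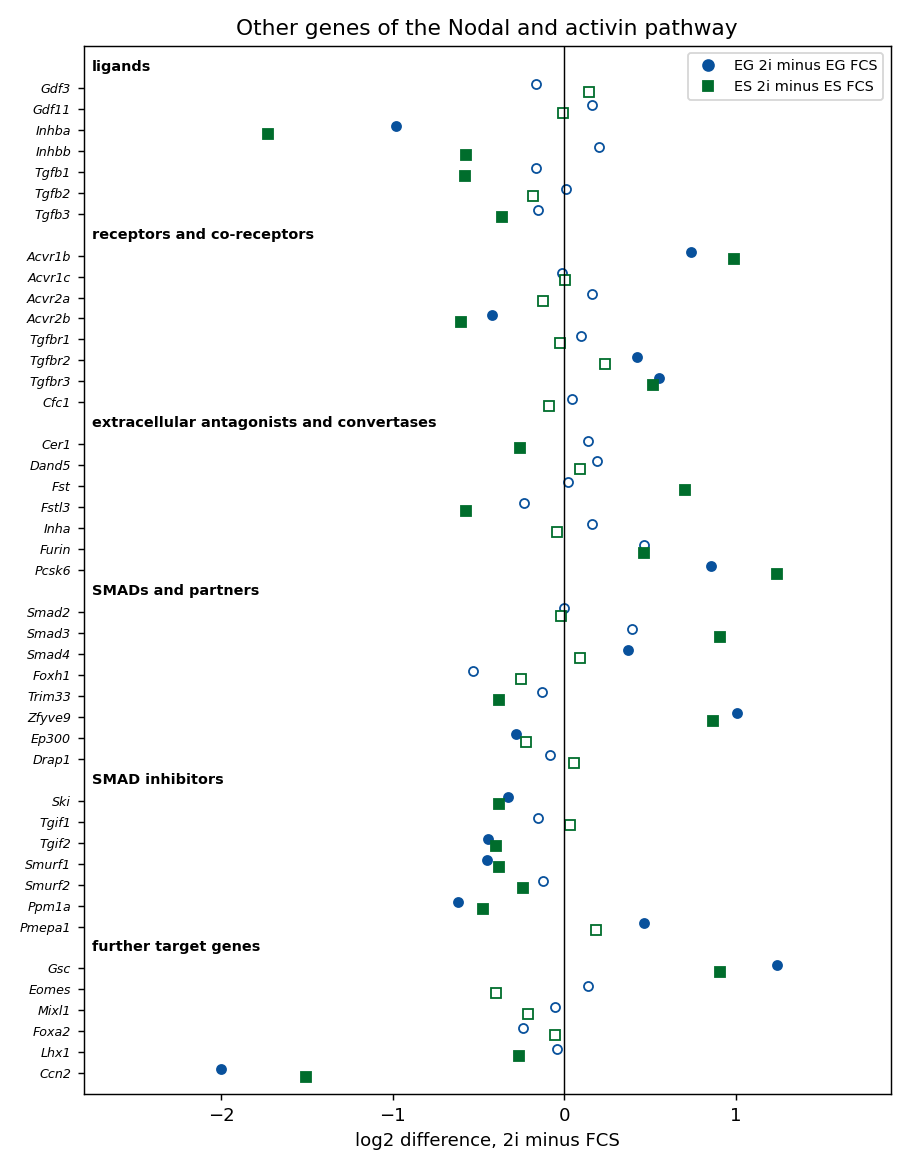
Log2 difference of the 43 other pathway genes (rows, by role) between EG 2i and EG FCS lines (circles) and between ES 2i and ES FCS lines (squares). Filled symbols passed the test. Ccn2 lies lowest in EG lines at −1.9998, and Gsc highest at 1.24. In ES 2i lines the means of Acvr1c, Cer1, Cfc1, Inhba, Lhx1, Tgfb2 and Tgfb3 were below background, so their squares show no measured size. In EG 2i lines the same holds for the circles of Acvr1c, Cer1, Cfc1 and Lhx1.

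The genes whose centred values over the 22 arrays lay nearest to each of the 3 variable genes were found by root mean square difference on the log2 scale. For Skil these were Efnb2 (0.22), Dnmt3a (0.23) and Atp10a (0.23). Lefty2 had Gpc3 (0.58), Naaa (0.71) and Klf12 (0.75), and Lefty1 had Ina (0.96), Adam23 (0.97) and Slc7a7 (0.97). The SD over the arrays was 0.91 for Skil, 1.08 for Lefty2 and 1.89 for Lefty1. Gpc3 and Naaa were also high in ES 2i line 3, as given above, and the part of that line in their nearness to Lefty2 was not tested. Nodal, Tdgf1 and Smad7 varied by an SD under 0.5 and were left out. All points share the 22 arrays and the change of culture.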

How the data were processed

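Total RNA of 22 samples was measured on Affymetrix mouse gene arrays, 1 array each. Each deposited number is a log2 RMA value of a probe set on 1 array. The authors used limma, RMA and the Affymetrix Expression Console, per the submitters' processing notes, and their versions were not given in those notes. RMA corrects background, normalizes by quantiles and summarizes probes, which tends to compress large differences. Nothing is stated there of a batch adjustment.

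Of 28853 probe sets, 21789 were listed with 1 gene symbol, 1621 with several and 5443 with none. Where a gene had several, its probe set of highest mean was taken, giving 19938 genes. Names and positions came from a RefSeq table of GRCm38.p6, which held the Entrez IDs of 21698 probe sets. Listed pathway genes beyond the 43 analysed are not reported here.

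One linear model (group, labelled batch, labelled sex) covered the 22 arrays in limma 3.58.1, run in R 4.3.3, and every adjusted p is limma's, two-sided, Benjamini-Hochberg over 19938 genes, called under 0.05. The fit was tested on simulated data. Alternatives were centring, quantile normalization again, mean of probe sets, a background filter, other model terms, array weights, single batches, male lines, a replicate block and leaving out each array.

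The 6 genes, the gene lists and the tests were chosen with earlier results of these data known. Named were the 6 genes, called genes of the pathway lists in the 2i against FCS comparisons, and up to 2 called per list elsewhere besides Foxh1, Smad2, Smad3, Smad4, Acvr1b, Acvr2b, Gdf3, Cer1, Fst, Furin and Pcsk6. Likeness was computed for genes with an SD of at least 0.5, and the 3 nearest are named. Figures were drawn with matplotlib 3.10.9.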

Additional observations from a re-analysis of the deposited data

Results flagged for a closer look

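In each of the 30 sets of values (6 genes in 5 groups), the highest and lowest lines were compared with the rest of their group by Dixon's test, which singles out about 1 set in 20 by chance. Both lines singled out concern Tdgf1. EG 2is line 1 was at 12.09, against 11.48 to 11.54 in the other EG 2is lines and 12.15 to 12.28 in EG FCS lines. ES FCS line 2 was at 12.59, against 12.05 to 12.13 in the other ES FCS lines.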

How the results depend on the processing

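Apart from single arrays left out, the counts of called genes among the 6 moved by over 1.5 times in 2 cases, and by 1 gene in 3 others. The smaller moves were 3 in place of 4 for ES 2i against ES FCS lines within batch 1 and with only the groups compared, and 2 in place of 3 for EG 2is against EG FCS lines with male lines only. For EG 2i against EG FCS lines the count was 1 in place of 4 with male lines only, where a single EG 2i line remains. For ES 2i against ES FCS lines it was 1 in place of 4 within batch 2, where 3 lines remain in each culture. Leaving out each array in turn gave 4 to 5 calls for EG 2i, 2 to 3 for EG 2is and 3 to 4 for ES 2i lines against FCS, and 0 elsewhere. Single genes that lost or gained a call with an array left out or within a batch are given with their results, and Lefty2 in ES lines also lost it with only the groups compared (adjusted p = 0.0526) and Tdgf1 within batch 2 (−0.32, adjusted p = 0.091) and in EG 2is male lines (−0.40, adjusted p = 0.0853); beyond a smaller number of samples, the cause was not tested.

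Values that turned sign were all uncalled in both settings. Without the sex term, Lefty2 in EG 2is against EG FCS was 0.027. Without the batch term, EG FCS against ES FCS gave Lefty2 −0.35, Tdgf1 0.018 and Smad7 0.056, and EG 2i against ES 2i gave Nodal −0.0067. Quantile normalization again put Nodal in EG 2i against EG FCS at 0.0015. With only the groups compared, EG FCS against ES FCS gave Lefty2 −0.11 and Nodal 0.043, and EG 2i against ES 2i gave Lefty1 0.26 and Nodal −0.013. Array weights put Lefty1 in female against male lines at −0.012. Within batch 1, Smad7 in ES lines was −0.25, EG FCS against ES FCS gave Nodal 0.036, EG 2i against ES 2i gave Lefty1 0.44 and Nodal −0.016, and the difference of responses was −0.052 for Nodal. With male lines only, EG FCS against ES FCS gave Lefty1 −0.0023, Lefty2 −0.077 and Smad7 0.20, EG 2i against ES 2i gave Lefty1 0.62, Lefty2 0.67 and Nodal −0.024, and the difference of responses was 0.62 for Lefty1, 0.75 for Lefty2 and 0.057 for Tdgf1.

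Leaving out 1 array, the ranges that crossed 0 were, for EG FCS against ES FCS, −0.10 to 0.57 (Lefty2), −0.11 to 0.025 (Nodal), −0.49 to 0.071 (Skil), −0.22 to 0.10 (Smad7) and −0.14 to 0.092 (Tdgf1). For EG 2i against ES 2i they were −0.53 to 0.36 (Lefty1), −0.63 to 0.021 (Lefty2) and −0.059 to 0.16 (Nodal). For the difference of responses they were −0.94 to 0.12 (Lefty2) and −0.032 to 0.18 (Nodal), and for female against male lines −0.29 to 0.47 (Lefty1). Against FCS they were −0.18 to 0.028 (Nodal, EG 2i), −0.40 to 0.066 (Lefty2, EG 2is), −0.27 to 0.053 (Smad7, EG 2is) and −0.038 to 0.14 (Smad7, ES 2i), and for EG 2i against EG 2is −0.17 to 0.0089 (Tdgf1).

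For ES samples, whether a number marks the same line in both cultures is not settled by the labels or by these values. Same-numbered ES samples share their labelled sex and batch. Each EG number holds lines of both sexes over the EG groups, so it does not mark the same line throughout. Deviations of same-numbered ES lines correlated at −0.01 to 0.24, with 2 of 5 lines closest to their own number. Those of EG 2i and EG FCS lines correlated at −0.13 to 0.07. The values were −0.12 to 0.05 for EG 2is and EG FCS lines, and −0.56 to 0.32 for EG 2i and EG 2is lines. Weak correlation between cultures cannot exclude pairing of ES samples by number. With the number within EG or ES as a replicate block, Lefty1 was −3.72 in EG 2i and −2.85 in ES 2i lines, and the counts against FCS were 4, 3 and 4 as without the block. In EG cells that block joins different lines, so it is no check of pairing there. With the number alone as a block, EG FCS against ES FCS gave Nodal 0.013 and Skil 0.055, EG 2i against ES 2i gave Lefty1 0.35, and female against male lines gave Lefty1 −0.29. Over all genes, the count called for EG 2i against ES 2i was 742, against 1758 without the batch term, 351 within batch 1, 15 with only the groups compared and 7 with male lines. Signal over background limits Lefty1 in EG 2i and ES 2i lines, whose lowest values lie near 4.88.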
